A study of Mus musculus with 9 samples.

Results

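Mitosis genes encode the kinases, motors, checkpoint and scaffold proteins that a cell makes as it prepares to divide, and 45 of them, listed by symbol, were followed in CD11b+ splenocytes of C57BL/6 mice. On the Affymetrix MOE430 array a probe set, a group of short probes summarised as 1 value, named 44 of the 45 alone. Some probe sets can match more than 1 transcript, among them those used for Bub3 and Pttg1. Cyclin B1, Ccnb1, had no such probe set here and is not measured. The 44 genes are part of 18193 genes so measured. A gene with several probe sets is represented by its brightest, averaged over the 9 arrays.

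Cells of mice exposed repeatedly to social threat (HighThreat), 6 animals with 1 array each, were set against cells of 6 mice under non-threatening control conditions (LowThreat), pooled by 2 into 3 arrays. All mice were C57BL/6, with no other genotype or agent named, and no age is stated. The cells had been taken from adherent spleen cells with magnetic beads for CD11b, an integrin of monocytes, macrophages, granulocytes and some natural killer cells. The comparison asks which transcripts differ with the exposure.

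The deposited values are log2 expression values made with RMA, which corrects background, aligns the arrays and summarises the probes. Array medians lay between 3.19 and 3.22. A gene was tested if its mean reached 2.66, the 40th percentile of all probe sets, which held for 13078 genes. Differences are threat minus control on the log2 scale, from limma with Benjamini-Hochberg adjustment over all 13078, called at an adjusted p under 0.05. The SE is limma's moderated standard error. The number of arrays limits the precision. Pooling may lower the spread of the control values, and the labels do not say how single animals within a pool differed. The CD11b gene Itgam averaged 8.50 ± 0.070 in threat cells and 7.93 ± 0.026 in control pools (SD, n = 6 and 3). The macrophage and granulocyte gene Lyz2 averaged 12.86 in threat cells and 12.74 in control pools. Genes of other cells were measured in the same RNA, among them the B cell gene Cd79a at 6.57 ± 0.19 in threat cells and 8.88 ± 0.075 in control pools, and the natural killer cell gene Gzma at 4.81 ± 0.21 in threat cells and 7.92 ± 0.25 in control pools (SD). Between 3′ and 5′ control probes of beta-actin, which follow RNA degradation, the difference was 0.357 ± 0.034 in threat arrays and 0.472 ± 0.063 in control arrays (exact permutation p = 0.0238, two-sided), while for Gapdh the groups differed by -0.036 (p = 0.512 in the exact permutation test). The part of these in the results below was not tested.

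Division begins when the kinase Cdk1, bound to cyclin B, becomes active and drives the cell into mitosis. There the spindle captures each chromosome at its kinetochore. A checkpoint holds the cell until every kinetochore is attached. The anaphase-promoting complex then marks securin and cyclin B for destruction, so that the chromosomes separate and the cell pinches apart. Most of these genes are transcribed late in the cycle and are nearly silent in resting cells. In bone marrow and spleen, early myeloid precursors divide, whereas mature neutrophils and most circulating monocytes do not.

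Mitosis genes were higher in threat cells, with few exceptions. Of 43 members that passed the filter, 39 rose and 1 fell, where 23.8% of all tested genes rose, 22.0% fell and 45.8% were called in either direction. Their median difference was 0.86, against 0.029 over all genes tested, and 16 of 43 were higher by at least 1 log2 unit, where 1.74% of all tested genes were. The other 3, Cks2, Foxm1 and Racgap1, did not pass the test. In 37 of 43 every threat animal lay above every control pool, a pattern found in 21.5% of all tested genes, and in Cenpa every threat animal lay below, as in 20.3% of all tested genes. The filter was passed by 3 members (Nek2, Ect2 and Anln) only through the threat arrays, since their control means lay under 2.66. Among the 40 others 36 rose and 1 fell, and with no filter 40 of 44 rose and 1 fell, where 17.4% of 18193 genes rose and 15.9% fell. When a difference had to exceed 1.2-fold (limma's treat test, chosen after the data were seen), 30 of 43 members were called higher and 0 lower, against 7.99% and 8.54% of all genes.

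**Figure D1:**
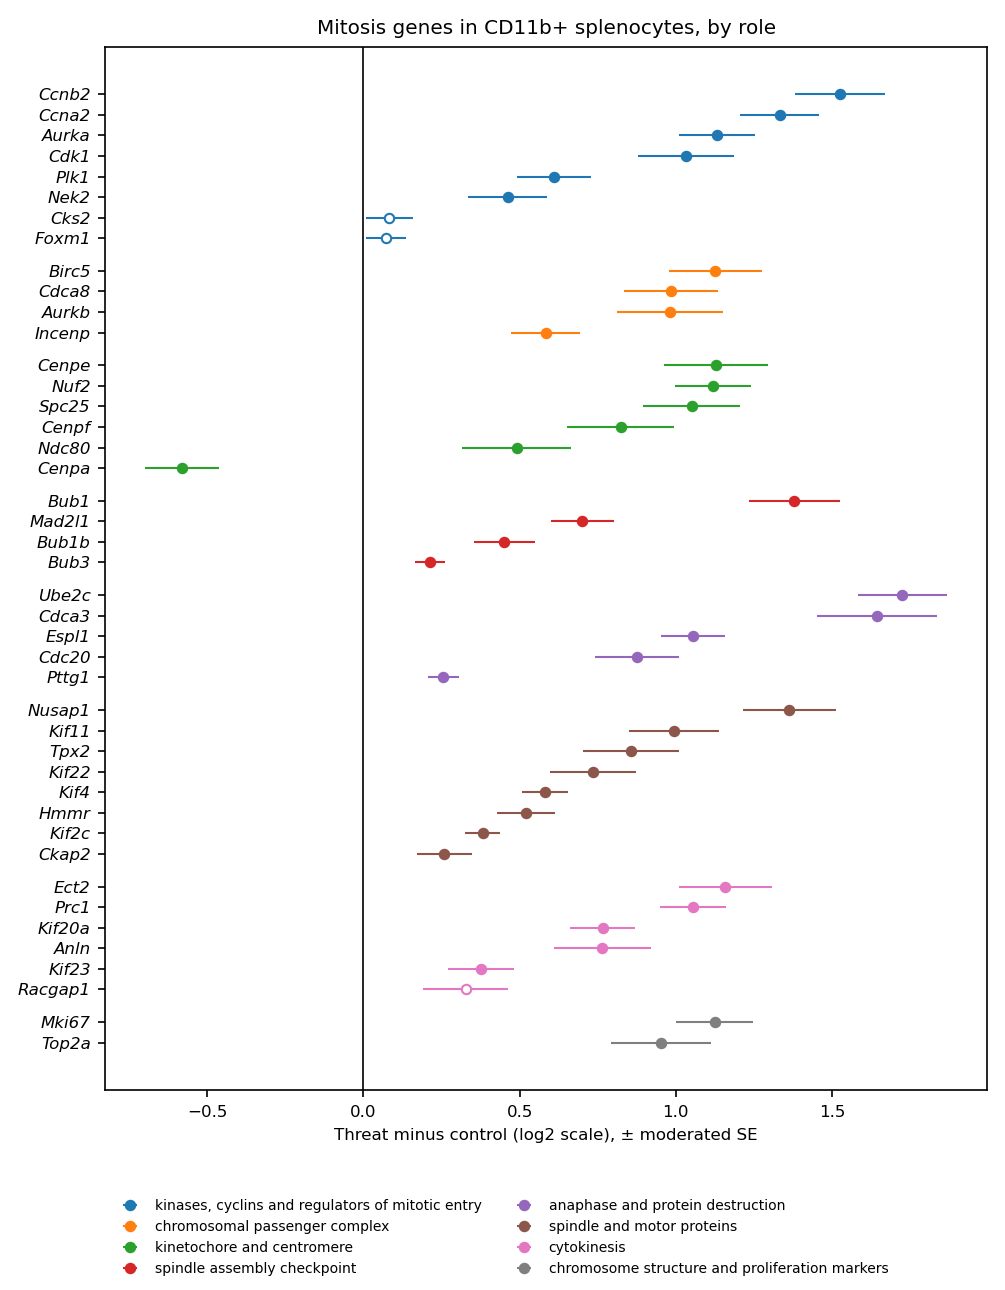
Difference of each tested mitosis gene, threat minus control on the log2 scale, with limma's moderated SE as the bar and colours for the role of the gene. Filled points passed the test and open points did not. All but Cenpa, at -0.58, lie to the right of 0, and Ube2c lies farthest, at 1.73.

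What the members share in sequence was read from RefSeq promoters of mouse assembly GRCm38.p6, which list 39 of the 45 genes. Promoters of late cell cycle genes are known for the cell cycle genes homology region, CHR, with the letters TTTGAA or TTCGAA, bound by MuvB complexes, and for CCAAT boxes, bound by NF-Y. Both were searched on both strands, so that TTTGAA is also read as TTCAAA and CCAAT as ATTGG, and matches that overlap were each counted. A gene counted if any of its listed promoters held a match. In the 250 bases before the annotated start, 15 of 39 members (38.5%) held a CHR match, against 19.6% of 27025 genes, and 31 (79.5%) held a CCAAT, against 37.5%. At least 2 CCAAT matches stood in 21 members (53.8%), against 11.5% of all genes. With the 50 bases after the start included, a window chosen after the first result was seen, 30 of 39 (76.9%) held a CHR match, against 21.7% of all genes, and 27 (69.2%) held both, against 8.61%. The CHR match nearest to the start lay within 50 bases of it in 27 of the 30 genes, and after it in 18. Since the window ends 50 bases after the start, every match after it lies within that distance. The share over all genes at this distance was not counted. A match is a description of letters, not a measured binding site.

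The stretches around the CHR match nearest to the start are shown for the 10 members with the largest rises among those that hold one, followed by Cenpa, which fell, and Racgap1, which was not called. Each is 30 bases with GRCm38.p6 coordinates, 5′ to 3′ on the strand of the gene, with the CHR letters in capitals.
Ube2c, chr2:164769888-164769917, plus strand: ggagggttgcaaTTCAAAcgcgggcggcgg
Cdca3, chr6:124830194-124830223, plus strand: cgtggagggaagTTTGAAactccgggcttt
Ccnb2, chr9:70421533-70421562, minus strand: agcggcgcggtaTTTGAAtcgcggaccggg
Bub1, chr2:127831828-127831857, minus strand: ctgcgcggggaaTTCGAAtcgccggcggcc
Ect2, chr3:27153822-27153851, minus strand: cgactggattttTTTGAAtcggaggcggca
Aurka, chr2:172370521-172370550, minus strand: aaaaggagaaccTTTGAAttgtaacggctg
Mki67, chr7:135716460-135716489, minus strand: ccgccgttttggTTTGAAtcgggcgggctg
Prc1, chr7:80294434-80294463, plus strand: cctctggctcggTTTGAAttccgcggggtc
Espl1, chr15:102296254-102296283, plus strand: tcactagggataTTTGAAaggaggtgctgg
Spc25, chr2:69206172-69206201, minus strand: ggcggtggagagTTTGAAattgaaagactg
Cenpa, chr5:30666890-30666919, plus strand: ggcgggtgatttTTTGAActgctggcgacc
Racgap1, chr15:99651634-99651663, minus strand: ctggtgcgtgatTTTGAAccggatctggcg
TTTGAA stands in most of them, its other strand TTCAAA in Ube2c and TTCGAA in Bub1, and Cenpa and Racgap1 hold TTTGAA as well. The match begins 29 bases before the start in Ube2c, 5 bases after it in Ccnb2 and 17 bases after it in Cenpa. Of the 39 genes, 9 hold no match in this window, among them Birc5, Nusap1, Cenpe and Nuf2, which rose by 1.13, 1.36, 1.13 and 1.12.

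The CCAAT letters are shown in the 150 bases before the start for the 3 members with the largest rises, for Cks2, the member with the smallest difference among those listed, and for Cenpa, added after its values were seen. Capitals mark CCAAT on either strand and any CHR letters.
Ube2c, chr2:164769779-164769928, plus strand: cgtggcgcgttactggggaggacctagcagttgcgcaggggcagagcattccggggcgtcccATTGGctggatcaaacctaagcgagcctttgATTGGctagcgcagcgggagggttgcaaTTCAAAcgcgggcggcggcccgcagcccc
Cdca3, chr6:124830026-124830175, plus strand: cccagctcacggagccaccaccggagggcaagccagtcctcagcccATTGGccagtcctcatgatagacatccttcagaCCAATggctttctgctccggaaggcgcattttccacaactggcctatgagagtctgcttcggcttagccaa
Ccnb2, chr9:70421555-70421704, minus strand: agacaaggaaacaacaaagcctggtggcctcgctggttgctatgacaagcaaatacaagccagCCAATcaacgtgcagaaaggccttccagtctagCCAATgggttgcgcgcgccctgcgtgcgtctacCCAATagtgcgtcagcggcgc
Cks2, chr13:51645082-51645231, plus strand: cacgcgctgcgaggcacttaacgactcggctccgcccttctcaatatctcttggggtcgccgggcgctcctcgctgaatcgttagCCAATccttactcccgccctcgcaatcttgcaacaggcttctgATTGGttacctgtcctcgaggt
Cenpa, chr5:30666736-30666885, plus strand: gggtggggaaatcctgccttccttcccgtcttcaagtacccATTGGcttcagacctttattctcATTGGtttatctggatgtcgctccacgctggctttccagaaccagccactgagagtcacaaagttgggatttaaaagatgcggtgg
Each of the 5 genes holds at least 2 CCAAT or ATTGG groups in these 150 bases, whether it rose, fell or was not called. Over all 39 listed members 31 hold a CCAAT in the 250 bases before the start, and 21 hold at least 2. Birc5, Nusap1 and Nuf2, which rose by 1.13, 1.36 and 1.12, hold none there. Foxm1, whose difference was smaller than that of Cks2, has no entry in the table.

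**Figure D2:**
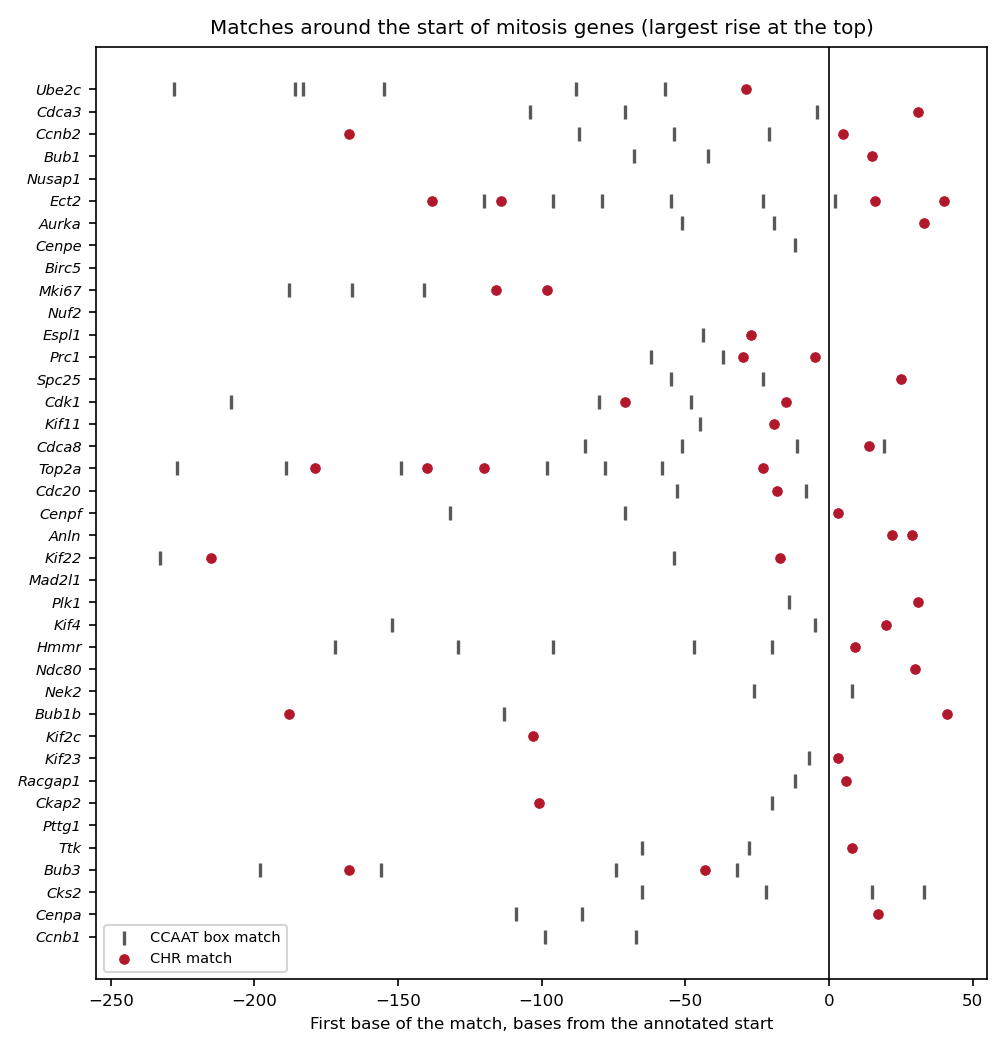
Position of CCAAT matches (grey ticks) and CHR matches (red points) in bases from the annotated start for the 39 mitosis genes with a listed promoter, ordered by their difference with the largest rise at the top and Ccnb1, not measured, at the bottom. CHR matches of 27 genes begin within 50 bases of the start, the distance at which the window ends after it. CCAAT matches mostly lie before the start.

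Among the regulators of mitotic entry, both measured cyclins and their kinase rose. Ccnb2, a B-type cyclin, had 5.48 to 6.22 in threat animals with a median of 5.87, against 4.28, 4.41 and 4.29 in the control pools. It rose by 1.53 (SE 0.14, adjusted p = 2.5e-06 in limma), a 2.88-fold difference, and every threat animal lay above every pool. Ccna2, the cyclin of S phase and early mitosis, rose by 1.33 (SE 0.13). Cdk1, the kinase that both serve, had 5.78 to 6.66 with a median of 6.295 in threat animals, against 5.35, 5.11 and 5.13 in control pools, and rose by 1.03 (SE 0.15, adjusted p = 0.00012 in limma). Its groups were separate.

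The kinases that act beside Cdk1 rose as well. Aurka, which builds the spindle poles, rose by 1.13 (SE 0.12), Plk1, a kinase of many mitotic steps, by 0.61 (SE 0.12), and Nek2, which splits the centrosomes, by 0.46 (SE 0.13), with a control mean under the filter. The call of Nek2 was lost without control pool 3-4 (adjusted p = 0.0552 in limma). Cks2, a small subunit of the Cdk1 complex, had 9.18 to 9.46 in threat animals with a median of 9.34, against 9.36, 9.24 and 9.12 in control pools. It differed by 0.083 (SE 0.075, adjusted p = 0.397 in limma) and the groups overlapped. A second probe set of Cks2, matching 1 transcript, gave 0.20, which passed when probe sets of that kind were taken first (adjusted p = 0.0374 in limma). In the fit of every probe set by itself it was not called (adjusted p = 0.0696 in limma). Foxm1, the transcription factor that drives many late cell cycle genes, had 4.78 to 5.10 in threat animals with a median of 4.88, against 4.76, 4.86 and 4.86 in control pools. It differed by 0.072 (SE 0.065, adjusted p = 0.396 in limma), and the groups overlapped.

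The chromosomal passenger complex, which corrects faulty attachments and guides cytokinesis, rose with all 4 subunits. Its member survivin, Birc5, had 4.78 to 5.61 in threat animals with a median of 5.26, against 4.08, 4.04 and 4.15 in control pools, and rose by 1.13 (SE 0.15, adjusted p = 4.5e-05 in limma). The scaffold Incenp had 6.35 to 6.87 with a median of 6.73 in threat animals, against 6.04, 6.02 and 6.13 in control pools, and rose by 0.58 (SE 0.11). Both were separate between the groups. The kinase Aurkb rose by 0.98 (SE 0.17) and Cdca8, which encodes borealin, by 0.99 (SE 0.15).

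Kinetochore and centromere genes gave the only fall. Cenpe, the motor that carries chromosomes to the spindle's middle, had 3.82 to 4.40 in threat animals with a median of 4.21, against 3.42, 3.05 and 2.59 in control pools, and rose by 1.13 (SE 0.17, adjusted p = 0.00011 in limma). The pools were spread widely here, with an SD of 0.42. Nuf2 and Spc25, subunits of the Ndc80 complex that grips microtubules, rose by 1.12 (SE 0.12) and 1.05 (SE 0.16), and Cenpf by 0.82 (SE 0.17). Spc25 gave 0.071 with a dimmer probe set that matches 1 transcript (adjusted p = 0.441 in limma). Ndc80 itself rose by 0.49 (SE 0.17, adjusted p = 0.0356 in limma) with overlapping groups, and its call was lost without control pool 3-4, control pool 5-6 or any of threat animals 1, 2, 3 and 4 (adjusted p between 0.0517 and 0.134).

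Cenpa, the histone H3 variant that marks the centromere, ran the other way. Threat animals 1 to 6 had 6.55, 6.42, 6.27, 6.26, 5.97 and 5.94, against 6.86, 6.76 and 6.83 in the control pools, and every threat animal lay below every pool. The gene fell by 0.58 (SE 0.12, adjusted p = 0.0013 in limma), to 0.669 of the control level. A second probe set of Cenpa above the filter value fell as well, by 0.27 (adjusted p = 0.040 in limma over all probe sets), and another, at a mean of 1.54, gave 0.13 and was not called. The call of Cenpa was lost when the difference had to exceed 1.2-fold (adjusted p = 0.0569). Within the threat group Cenpa was high in animals 1 and 2 and low in animals 5 and 6, the order seen in most members that rose.

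The spindle checkpoint genes rose by unequal amounts. Bub1, a checkpoint kinase, had 3.80 to 4.48 in threat animals with a median of 4.04, against 2.79, 2.88 and 2.45 in control pools, and rose by 1.38 (SE 0.15, adjusted p = 6.8e-06 in limma). Its groups did not overlap. Mad2l1, which with Bub1b restrains Cdc20, rose by 0.70 (SE 0.10), and Bub1b by 0.45 (SE 0.098). Bub3, their partner, had 8.31 to 8.40 with a median of 8.35 in threat animals, against 8.13, 8.22 and 8.07 in control pools, and rose by 0.21 (SE 0.048, adjusted p = 0.0027 in limma). That rise rests on 1 probe set: the mean of the 5 probe sets gave -0.021 (adjusted p = 0.726 in limma), and the brightest of the 3 that match a single transcript 0.035 (adjusted p = 0.602). The other 2 of these gave -0.13, which was not called, and -0.26, which was called lower from a mean of 1.98, under the filter value. Ttk, the kinase at the head of the checkpoint, had a mean of 2.30, under the filter, with 2.30 to 2.44 in threat animals, against 2.05, 2.27 and 2.15 in control pools. Its groups did not overlap, and with no filter it was called higher by 0.21 (adjusted p = 0.0095 in limma).

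Genes of anaphase held the 2 largest rises among the members. Ube2c encodes a ubiquitin enzyme that works with the anaphase-promoting complex. The gene had 6.42 to 7.14 in threat animals with a median of 6.82, against 5.17, 5.19 and 4.87 in control pools. It rose by 1.73 (SE 0.14, adjusted p = 7.9e-07 in limma), a 3.31-fold difference, and every threat animal lay above every pool. Cdca3, which helps to destroy the mitotic inhibitor Wee1, rose by 1.64 (SE 0.19) although 1 pool stood low, with 5.02 to 5.74 in threat animals, against 4.17, 3.21 and 3.90 in control pools. That rise rests on 1 probe set. A dimmer one with a mean of 3.03 gave 0.13 (adjusted p = 0.166 in limma over all probe sets). Another, at a mean of 1.23, gave 0.099 and was not called. Espl1, which encodes the protease separase, rose by 1.05 (SE 0.10) and Cdc20, the activator of the complex, by 0.88 (SE 0.13). Pttg1, which encodes securin, had 10.02 to 10.11 with a median of 10.04 in threat animals, against 9.88, 9.80 and 9.72 in control pools, and rose by 0.26 (SE 0.051, adjusted p = 0.0011 in limma). The difference is small but the groups did not overlap.

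Spindle and motor genes all rose, 8 of 8. Nusap1, which bundles spindle microtubules, had 5.01 to 5.84 in threat animals with a median of 5.51, against 4.12, 4.01 and 4.13 in control pools, and rose by 1.36 (SE 0.15, adjusted p = 8.6e-06 in limma). Kif11, the motor that pushes the poles apart, rose by 0.99 (SE 0.14) and Tpx2, the activator of Aurora A, by 0.86 (SE 0.15). The rise of Tpx2 rests on 1 probe set with a mean of 4.07, since another with a mean of 4.06 gave -0.025 (adjusted p = 0.818 in limma over all probe sets) and a dimmer one with a mean of 3.65 gave 0.11 (adjusted p = 0.311). Kif22, a chromosome arm motor, had 5.88 to 6.50 with a median of 6.12 in threat animals, against 5.65, 5.26 and 5.34 in control pools, and rose by 0.73 (SE 0.14, adjusted p = 0.00071 in limma). The remaining rises were those of Kif4 (0.58), Hmmr (0.52), the microtubule depolymerase Kif2c (0.38) and Ckap2 (0.26). The call of Ckap2 (adjusted p = 0.0306 in limma) was lost without any 1 of the control pools and without threat animal 2 or 4 (adjusted p between 0.0570 and 0.0996).

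Of 6 cytokinesis genes, 5 rose. Of these, Ect2 and Anln passed the filter only through the threat arrays. Ect2, the exchange factor that starts the contractile ring, had 3.16 to 3.82 in threat animals with a median of 3.45, against 2.44, 2.32 and 2.13 in control pools, and rose by 1.16 (SE 0.15, adjusted p = 3.4e-05 in limma). Its control pools all lay under the filter value and its threat animals all above it. Prc1, which bundles the central spindle, rose by 1.05 (SE 0.11), the motor Kif20a by 0.77 (SE 0.10) and the ring scaffold Anln by 0.76 (SE 0.16). Kif23, the motor subunit of centralspindlin, had 5.61 to 6.12 with a median of 5.90 in threat animals, against 5.59, 5.38 and 5.53 in control pools. It rose by 0.38 (SE 0.11, adjusted p = 0.0116 in limma), a call lost without control pool 3-4 (adjusted p = 0.0604). Racgap1, the other subunit of that complex, differed by 0.33 (SE 0.14, adjusted p = 0.0672 in limma), with 4.88 to 5.57 in threat animals overlapping the 5.06, 4.91 and 4.86 of the control pools. It passed when threat animal 5 was left out (adjusted p = 0.0454 in limma), among other alternatives that include the fit without threat animal 6 (adjusted p = 0.0123).

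The proliferation marker Mki67, which coats mitotic chromosomes, had 6.83 to 7.53 in threat animals with a median of 7.36, against 6.13, 6.23 and 6.07 in control pools. It rose by 1.13 (SE 0.12, adjusted p = 9.1e-06 in limma), and the groups did not overlap. Top2a, the topoisomerase that untangles sister chromatids, had 5.79 to 6.60 with a median of 6.25 in threat animals, against 5.28, 5.45 and 5.13 in control pools, and rose by 0.95 (SE 0.16, adjusted p = 0.00034 in limma). A dimmer probe set of Top2a, matching 1 transcript, had a mean of 2.94 and gave 0.21 (adjusted p = 0.162 in limma), and another, at a mean of 2.14, gave 0.081 and was not called.

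**Figure D3:**
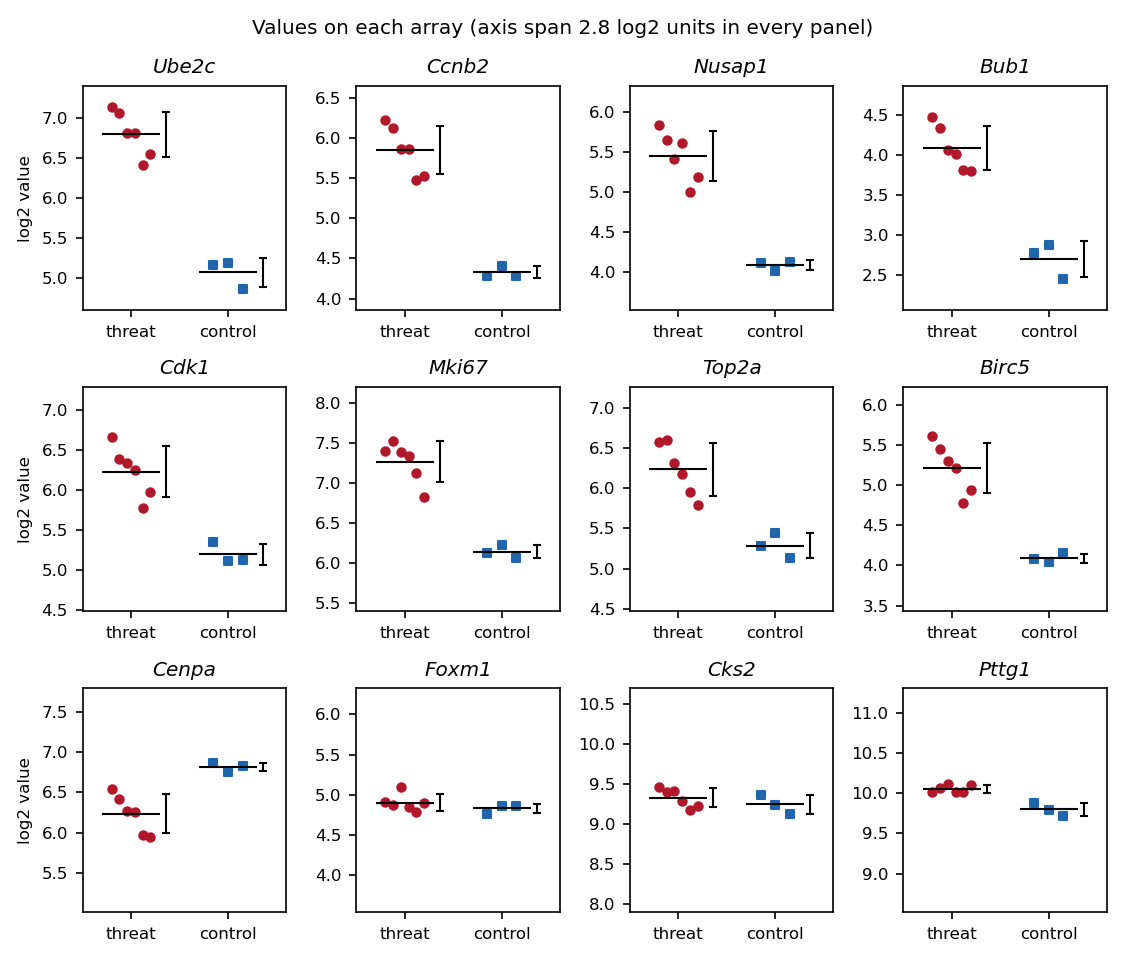
Log2 values of 12 mitosis genes on each array, threat animals 1 to 6 (red points, left to right) and control pools 1-2, 3-4 and 5-6 (blue squares), with the group mean as a line and the SD as a bar, on axes of equal span. Ube2c, Ccnb2 and Bub1 show separate groups, Foxm1 and Cks2 overlap, and Cenpa lies lower in threat animals.

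Over all probe sets the picture was less even. The 44 genes are named alone by 103 probe sets, of which 55 rose and 4 fell in a fit of every probe set by itself, where 11.5% of 45037 rose and 12.9% fell. Of the 76 with a mean of at least 2.66, 52 rose and 2 fell, both of Cenpa. Of the 21 genes with more than 1 probe set at that level, 6 rose in every one, and in 2, Bub3 and Tpx2, the differences had both signs. Of 27 dimmer ones 3 rose and 2 fell, and the 2 that fell belong to Bub3 and Hmmr, whose brightest probe sets rose. The mean over the 44 genes on an array was 5.24 ± 0.20 in threat animals and 4.45 ± 0.091 in control pools (SD, n = 6 and 3), a difference of 0.79.

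The threat animals differed among themselves in most members alike. Mean values over the 44 genes were 5.49, 5.39, 5.28, 5.27, 5.00 and 5.01 in threat animals 1 to 6, against 4.53, 4.47 and 4.36 in control pools 1-2, 3-4 and 5-6. The highest threat value stood in animal 1 or 2 for 39 of 43 tested members, against 39.6% of all tested genes, and the lowest in animal 5 or 6 for 39 of 43, against 31.8%. Animal 1 alone was highest in 29 members and animal 5 lowest in 24. The median SD of a member was 0.24 among threat animals and 0.14 among control pools, where that of all tested genes was 0.085 among threat animals and 0.083 among control pools. The labels give no meaning to the animal numbers, and members share the same 9 RNA samples.

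Markers of other cells that moved in the same arrays were measured with them. The counts for each cell type below stand beside 23.8% of all tested genes that rose and 22.0% that fell. Of 13 tested granulocyte precursor genes 11 rose and 0 fell, among them the neutrophil protease and peroxidase genes Prtn3 by 3.48 (SE 0.15), Mpo by 2.95 (SE 0.20) and Elane by 2.62 (SE 0.17). Their mean was 9.30, 9.21, 9.14, 9.06, 8.78 and 8.79 in threat animals 1 to 6, against 7.54, 7.44 and 7.37 in the control pools, so animals 5 and 6 were lowest here too. The same was true of B cell genes, with means of 5.02, 5.00, 4.87, 4.81, 4.65 and 4.66 in threat animals 1 to 6. Stem and progenitor genes, also lowest in animals 5 and 6, had 4.73, 4.77, 4.73, 4.72, 4.62 and 4.63. Not every list had this order. Natural killer cell genes were lowest in animal 2, at 3.47, and monocyte and macrophage genes were highest in animal 5, at 9.47. The summed linear signal of the granulocyte precursor genes ran between 22624 and 29128 in threat animals, against 13492 and 14850 in control pools. Of 9 mature neutrophil genes 8 rose and 1 fell, and their summed signal ran between 29289 and 31093 in threat animals, against 20701 and 21551 in control pools. In RNA of mixed cells, more cells of a type and more RNA per cell cannot be told apart. The part of these cells in the rise of mitosis genes was not tested.

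Other dividing cells that a spleen could hold gave other values. Of 8 tested genes of stem and early progenitor cells 6 fell and 0 rose, among them Myb by 0.90 (SE 0.16) and the receptor gene Kit by 0.65 (SE 0.094), with a summed signal of 297 to 335 in threat animals, against 403 to 423 in control pools, and Cd34 and Meis1 under the filter. Of 12 erythroid genes with a probe set, 5 lay under the filter, Slc4a1, Rhag and Hba-a1 among them. Of the 7 tested 1 rose, the regulator gene Klf1 by 0.18 (SE 0.060), and 2 fell, Tfrc and Car2, which other cells express as well, with a summed signal of 137 to 152 in threat animals, against 252 to 289 in control pools. Germinal centre B cell genes lay under the filter for Rgs13, Mybl1 and Gcsam, and of 3 tested only Fas rose, with sums of 1197 to 1383 in threat animals, against 1020 to 1077 in control pools. Of 9 B cell genes 8 fell, with sums of 296 to 397 in threat animals, against 1401 to 1627 in control pools. Of 7 plasma cell genes 5 fell and 1 rose, with sums of 1243 to 1340 in threat animals, against 2077 to 2310 in control pools.

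Further cell types gave the following values. Monocyte and macrophage genes rose in 6 of 10 and fell in 2, with sums of 18338 to 19252 in threat animals, against 15478 to 16502 in control pools. Natural killer cell genes fell in 7 of 8, with sums of 142 to 153 in threat animals, against 563 to 660 in control pools. Dendritic cell genes fell in 7 of 8, with 477 to 525 in threat animals, against 1225 to 1318 in control pools. T cell genes fell in 3 of 7, with 106 to 119 in threat animals, against 142 to 147 in control pools. Of 7 megakaryocyte and platelet genes 4 rose and 1 fell, with 261 to 284 in threat animals, against 210 to 232 in control pools.

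**Figure D4:**
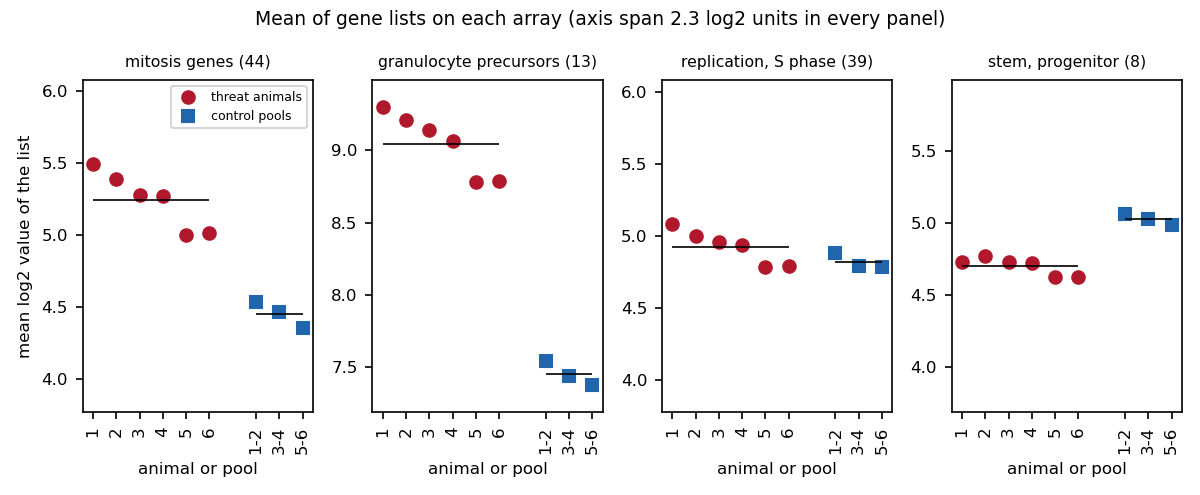
Mean log2 value of 4 gene lists on each array, with threat animals 1 to 6 as red points, control pools as blue squares and group means as lines. Mitosis genes and granulocyte precursor genes are higher in threat animals, the groups overlap in replication genes, and stem and progenitor genes are lower in threat animals. In all 4 lists animals 5 and 6 are the lowest of the threat animals.

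Genes of the same pathway outside the 45 had smaller median differences. Over all tested genes 23.8% rose and 22.0% fell. Of 27 other spindle, motor and cytokinesis genes 17 rose (63.0%) and 1 fell (3.7%), and their median was 0.27. Cep55, which completes the cut between daughter cells, had 4.32 ± 0.33 in threat animals and 2.89 ± 0.090 in control pools (SD, n = 6 and 3) and rose by 1.43 (SE 0.16). Tacc3, a spindle stabiliser, rose by 0.78 (SE 0.098), and Haus8, an augmin subunit, fell by 0.48 (SE 0.055). Of 18 other mitotic kinases, phosphatases, cyclins and regulators 9 rose and 3 fell, and the median was 0.16. The phosphatase gene Cdkn3 rose by 1.58 (SE 0.16) and the kinase gene Pbk by 0.85 (SE 0.13), while Wee1, the kinase that holds Cdk1 inactive, fell by 0.28 (SE 0.054).

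The MuvB complex, which binds CHR elements, is in that list. Lin54, its DNA-binding subunit, had 5.38 ± 0.13 in threat animals and 6.01 ± 0.096 in control pools (SD, n = 6 and 3) and fell by 0.63 (SE 0.076, adjusted p = 2.0e-05 in limma). Of its partners, named after their values were seen, Lin9 fell by 0.44 (SE 0.085) and Lin37 differed by -0.030 (adjusted p = 0.699 in limma). Mybl2, the factor that turns the complex into an activator, differed by 0.075 (SE 0.11, adjusted p = 0.618 in limma). Of all tested genes 23.8% rose and 22.0% fell. The values of these 4 genes are of transcripts, and the part of the complex in the rise of mitosis genes was not tested.

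Protein complexes of the same steps were followed as well. Of 17 anaphase-promoting complex genes 8 rose (47.1%, against 23.8% of all genes) and 0 fell (against 22.0%), around a median of 0.13. Fbxo5, which encodes an inhibitor of the complex, had the highest value at 0.47 (SE 0.070). The subunit gene Anapc11 rose by 0.39 (SE 0.059). Of 19 condensin and cohesin genes 7 rose (36.8%) and 3 fell (15.8%). Cdca5, which encodes the cohesion factor sororin, rose by 1.32 (SE 0.14) and the condensin gene Ncapg by 0.93 (SE 0.14). Ncapg2, its counterpart in the second condensin, fell by 0.76 (SE 0.098), and the cohesin gene Smc3 by 0.33 (SE 0.061). Of 24 other kinetochore genes 10 rose (41.7%) and 4 fell (16.7%). Spc24 rose by 0.76 (SE 0.094) and Nsl1 by 0.57 (SE 0.064), while Cenpl fell by 0.46 (SE 0.054) and Pmf1 by 0.28 (SE 0.069).

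Replication genes included rises and falls. Of 39 tested genes of replication and S phase 13 rose (33.3%, against 23.8% of all genes) and 7 fell (17.9%, against 22.0%), with a median of 0.13. Rrm2, the regulated subunit of ribonucleotide reductase, rose by 1.498 (SE 0.17), with 6.65 ± 0.37 in threat animals and 5.15 ± 0.087 in control pools (SD, n = 6 and 3), and Pola2 by 0.40 (SE 0.050). Cdt1, which loads the replicative helicase, fell by 1.196 (SE 0.090), and the helicase subunit gene Mcm6 by 1.13 (SE 0.12). The mean of the 39 genes was 5.08, 5.00, 4.96, 4.94, 4.78 and 4.79 in threat animals 1 to 6, against 4.88, 4.80 and 4.79 in the control pools, so the groups overlapped. Of 29 G1 regulators and inhibitors 9 rose (31.0%) and 10 fell (34.5%). Among the D cyclins, which start the cycle, Ccnd3 rose by 0.74 (SE 0.097), while Ccnd2 fell by 1.504 (SE 0.081) and Ccnd1 by 0.90 (SE 0.094). Ccng2, a cyclin of resting cells, rose by 0.51 (SE 0.058).

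**Figure D5:**
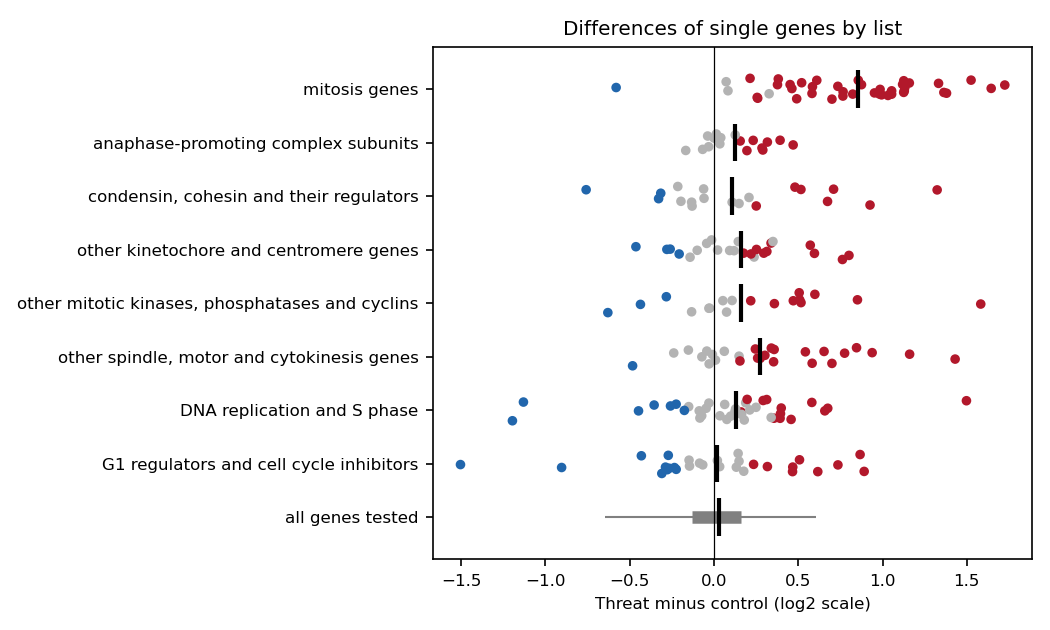
Difference of each tested gene, threat minus control on the log2 scale, for the mitosis genes and 7 other lists, red where it rose, blue where it fell and grey where it was not called, with the list's median as a black bar. For all 13078 genes the box spans the quartiles and the line most of the remaining genes. The mitosis genes centre on 0.86, and the median of each other list lies at 0.27 or below.

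Promoter letters were also counted in these lists. In the 250 bases before the start, the window searched first, a CHR match was found in 15 of 39 members, 8 of 16 condensin and cohesin genes, 9 of 24 other spindle, motor and cytokinesis genes, 5 of 14 other mitotic kinases and regulators, 9 of 28 other kinetochore genes, 3 of 16 anaphase-promoting complex genes, 7 of 34 replication genes and 5 of 24 G1 genes. In the last 100 of these bases it was found in 10 of 39 members, 5 of 16 condensin and cohesin genes and 7 of 24 other spindle, motor and cytokinesis genes. In both windows the share of members was therefore no higher than that of condensin and cohesin genes. With the 50 bases after the start, the window chosen after the data were seen, the counts were 30 of 39 members, 9 of 16 condensin and cohesin genes, 14 of 24 other spindle, motor and cytokinesis genes, 7 of 14 other mitotic kinases and regulators, 13 of 28 other kinetochore genes, 4 of 16 anaphase-promoting complex genes, 8 of 34 replication genes and 5 of 24 G1 genes. The order of the lists thus depends on the window. Among the pathway genes tested, members left out, 16 held CHR letters in the last 100 bases before the start together with a CCAAT. Of these 9 rose and 1 fell, and of 126 others 53 rose and 22 fell. Over all tested genes 23.8% rose and 22.0% fell. The 126 lack only this combination, and can hold CCAAT alone or a CHR match elsewhere, such as after the start. Whether these letters go with a rise was not tested.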

How the data were processed

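Expression was measured on 9 Affymetrix arrays of CD11b+ splenocytes, grouped by the stress label as 6 HighThreat animals and 3 LowThreat pools of 2 animals. Each deposited value is the log2 signal of 1 probe set, computed by the authors with RMA, per the submitters' processing notes. Neither version nor settings of RMA are stated, and the log base was taken from the values, 0.607 to 13.567. RMA aligns the arrays, so a change of total RNA per cell would not be seen, and it gives no detection call.

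The table holds 45101 probe sets, 64 of them controls. Platform annotation, updated by Entrez number to RefSeq symbols of GRCm38.p6, names 1 gene for 34945, several for 932 and none for 9160; only the first kind was used. Genes were tested in R 4.3.3 with limma 3.58.1 (lmFit, eBayes, Benjamini-Hochberg at 0.05, two-sided) over 13078 of 18193 genes whose mean reached the 40th percentile, 2.66, and the fit was tested on simulated data. Exact permutation tests ran over all 84 divisions into 6 and 3. Members and lists were chosen with earlier results of these data known. Members are reported in full. By rule, the one with the largest difference and the one with the highest mean in each role are given by array, with Mki67, Top2a, Cdk1 and any that ran against the majority, and in other lists the 2 smallest p-values each way. Labels name no batch, and nothing says whether the arrays were run together. Whether shared numbers pair the samples is not stated. Deviations of same-numbered arrays correlated at 0.15, -0.15 and -0.029, and so few arrays cannot decide it.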

Additional observations from a re-analysis of the deposited data

Results flagged for a closer look

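One value of the mitosis genes stood apart from its group. Anln, the scaffold of the contractile ring, had 3.82 in threat animal 1, while the other 5 threat animals lay between 2.949 and 3.203. The gap to the next animal was 0.709 of the whole range of the 6, above Dixon's critical value. Chance gives such a value in about 1 of 20 groups, and 45 groups were examined. The rise of Anln kept its call without that animal.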

How the results depend on the processing

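Members called higher ranged between 28 (of 32 tested, filter at the 60th percentile) and 40 over all alternatives, and between 35 and 40 when 1 array was left out, where 5310 to 5806 genes were called in all. The difference of the members' mean ran between 0.738 and 0.837 without 1 array, and was 0.6246 with each gene's probe sets averaged and 0.671 with single-transcript probe sets preferred. Asking for more than 1.2-fold, an alternative chosen after the data were seen, left 2162 genes called, with 30 members higher and 0 lower. The CHR share was 76.9% in the window chosen after the data were seen. Bub3 reversed to -0.0207 with the mean of its probe sets. Of the member values under alternatives, 810 kept direction and call, 26 lost the call, 7 gained it and 1 reversed, and 29 members kept theirs throughout. With a replicate block 40 members were higher and 1 lower, 5945 genes were called, and Racgap1 passed (adjusted p = 0.00723 in limma). Whether the numbers pair the samples is not stated. The 3 control pools limit the precision, and RMA values give no detection limit. The causes of these changes were not tested.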
